A study of Macaca mulatta with 30 samples.

Results

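The genes described here encode voltage-gated potassium channels and the proteins that assemble with them, measured by RNA sequencing in cortical area 32, a medial prefrontal area, of rhesus macaques that drank ethanol by choice for over 12 months. The set took every gene whose symbol carries one of the Kv prefixes (KCNA, KCNAB, KCNB, KCNC, KCND, KCNF, KCNG, KCNH, KCNIP, KCNQ, KCNS or KCNV) or is an HCN channel. Members were thus matched by symbol, though the set was chosen with earlier results of these data known. Of 15521 genes in the deposited table, 46 matched. Testing required 10 or more normalized reads in 6 or more of the 30 libraries, which 42 of the 46 reached, among 12935 genes in all. KCNA7, KCNA10 and KCNG4 reached 10 normalized reads in 0 libraries and KCNH6 in 5. HCN2 is not among the genes analysed here. Counts below cover all 42 tested members, and 38 of them are described singly.

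The 30 libraries each came from 1 male animal with no genetic alteration given in the labels; the authors had removed 1 outlying animal of 31. Every animal was induced to drink 4% ethanol and then had open access to it, so all groups compared here are drinkers and no group without ethanol was used here. The authors' categories are set by intake. Very heavy drinkers (VHD, n = 6) averaged over 3 g/kg of ethanol a day and passed 4 g/kg on at least 10% of days. Heavy drinkers (HD, n = 7) reached 3 g/kg on at least 20% of days, and binge drinkers (BD, n = 7) reached 2 g/kg on at least 55% of days and had a blood ethanol level of 80 mg/dl or more at some time each year. Low drinkers (LD, n = 10) met none of these limits. The animals were studied in 4 cohorts with a mean age at the end of drinking of 9.98 years in cohort 4 (n = 9), 7.15 years in cohort 5 (n = 8), 7.18 years in cohort 7b (n = 5) and 5.70 years in cohort 7a (n = 8). Categories are spread unevenly over cohorts. Cohort 4 held 0 VHD and 4 LD animals, cohort 5 held 4 VHD and 0 LD animals, and VHD met LD directly only in cohort 7a, with 2 and 3 animals.

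Voltage-gated potassium channels open when the membrane depolarises and let potassium leave the cell, which ends action potentials and sets how often a neuron can fire. Alpha subunits join to form the pore. Kv1, Kv2, Kv3, Kv4 and Kv7 subunits assemble within their own families, silent subunits work only beside Kv2, and beta subunits and KChIP proteins attach from the cytoplasm. HCN channels are relatives that open on hyperpolarisation and carry an inward current that shapes the resting potential and dendritic integration. Each library is from bulk tissue, so fewer cells of a type and less RNA per cell cannot be told apart in any value below.

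The 46 matching genes together took 0.378 ± 0.0207% of the counted reads (SD, n = 30 animals), between 0.331% and 0.411% in single libraries. The share averaged 0.373% in VHD, 0.372% in HD, 0.380% in BD and 0.385% in LD animals. Libraries held 4.39 to 13.99 M counted reads, with means of 10.2 ± 2.64 M in VHD, 9.19 ± 3.16 M in HD, 8.23 ± 3.94 M in BD and 9.01 ± 2.43 M in LD animals (M for 10 to the power of 6 reads, ± SD). Levels are given below as normalized reads, the deposited values, in which 1 read is worth between 0.656 and 2.07 units depending on the library. Levels of different genes are compared only as normalized reads per kb of listed exon length.

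Per kb, the members described singly spanned a 161-fold range. The median of all 42 was 135 normalized reads per kb, against 102 over all tested genes, and 29 of the 42 members lay above that all-gene median. KCNAB2, the beta subunit that attaches to Kv1 channels, was highest at 1122 ± 111 normalized reads per kb (SD, n = 30). KCNH3, an ELK-type channel of forebrain neurons, stood at 656 ± 101 normalized reads per kb, below KCNAB2 in 30 of 30 libraries. KCNQ3, a subunit of the M-current that restrains repetitive firing, stood at 504 ± 32.0 and the fast Kv3 channel KCNC2 at 496 ± 33.1 normalized reads per kb. KCNH3 exceeded KCNQ3 in 28 of 30 libraries. KCNQ3 exceeded KCNC2 in 16 of 30 and KCNIP4 exceeded KCNA2 in 18, so these neighbours were not separated beyond their spread.

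At the low end stood KCND1 at 15.5 ± 2.50, KCNV2 at 14.9 ± 4.80, KCNG2 at 12.4 ± 4.16 and KCNH8 at 6.98 ± 2.60 normalized reads per kb (SD, n = 30). KCNG2 exceeded KCNH8 in 27 of 30 libraries. The 4 members under the filter averaged 0.34 (KCNA7), 0.47 (KCNA10), 3.11 (KCNG4) and 7.21 (KCNH6) normalized reads.

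**Figure D1:**
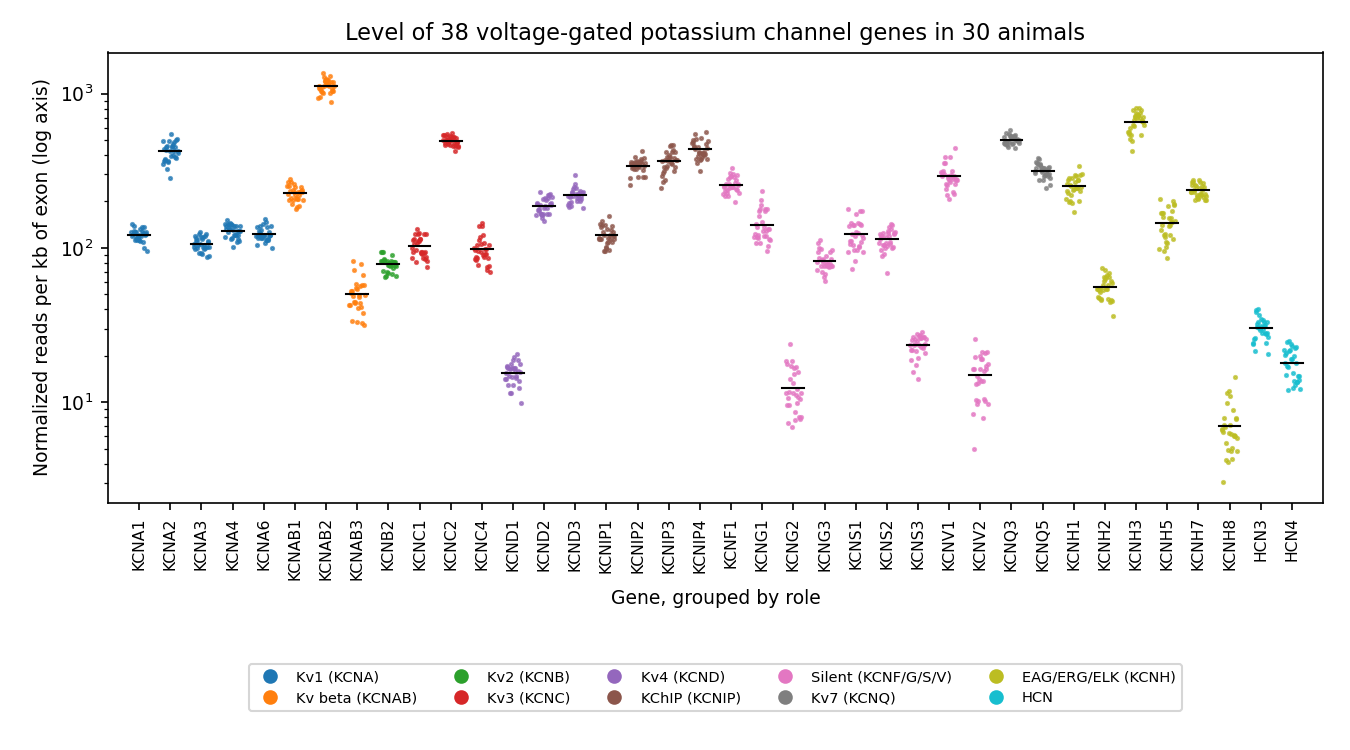
Level of 38 tested members in normalized reads per kb of exon (log axis), grouped by role; each point is 1 of 30 libraries and the line is the mean. Among the genes drawn KCNAB2 stands highest at 1122 and KCNH8 lowest at 6.98.

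In some families a single member held most of the per kb level. Among the Kv beta subunits, KCNAB2 held 80.1 ± 2.45% of the family's summed level (SD, n = 30). Among the Kv3 channels, which let fast-spiking neurons repolarise quickly, KCNC2 held 71.3 ± 3.32%, against 14.7% for KCNC1 and 14.01% for KCNC4.

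Other families were shared out more evenly. KCNA2, an axonal Kv1 channel, held 46.6 ± 3.67% of the Kv1 level. The A-type Kv4 channels KCND3 and KCND2 held 51.9 ± 4.43% and 44.5 ± 4.49% of theirs, and KCND1 held 3.66%. Among the KChIPs, calcium-binding partners of Kv4, KCNIP4 held 34.5%, KCNIP3 28.8%, KCNIP2 27.1% and KCNIP1 9.59%. KCNQ3 and KCNQ5 held 31.4% and 19.8% of the Kv7 level. Among the silent subunits KCNV1 led with 27.4% and KCNF1 followed with 24.2%, and KCNH3 led the EAG, ERG and ELK family with 48.4%.

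Summed over each family, the Kv7 channels had 1612 ± 141, the Kv beta subunits 1399 ± 111 and the EAG, ERG and ELK channels 1352 ± 126 normalized reads per kb (SD, n = 30). The HCN channels had the smallest sum, 273 ± 22.2, below the Kv4 channels at 423 ± 26.3 normalized reads per kb.

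The per kb scale depends on which exons the table lists. Relative to the longest exon of its gene, an exon under 60 bases had a median of 4.35 times the per kb level (23 exons), one of 60 to 200 bases 2.22 times (149 exons). How the counter treated reads that span junctions is not given. When only the longest exon of each gene was used, KCNAB2 stayed first at 756 normalized reads per kb, KCNH3 followed at 525.8, and KCNH7 moved from rank 15 to rank 24. HCN3 rests partly on 1 exon: the 147 bases at chromosome 1, 129542518 to 129542664 (in the table's coordinates, whose genome build is not given), held 44.3% of its reads, and its level was 17.5 ± 3.64 instead of 30.1 ± 4.95 normalized reads per kb without them.

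Single exons stood apart in other members. An exon of KCNIP3 at chromosome 2a, 91743532 to 91743634, had 7.60 normalized reads per kb and reached 5 normalized reads in 0 libraries. The exon of KCND3 at chromosome 1, 112578496 to 112578903, held 1.19% of that gene's reads, 6.86 ± 3.44 normalized reads (SD, n = 30).

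The members' spread between animals varied with their level. The coefficient of variation over all 30 libraries had a median of 14.6% and was smallest for KCNQ3 (6.35%), KCNC2 (6.67%) and KCNA1 (8.93%). It was largest for KCNH8 (37.2%), KCNG2 (33.6%) and KCNV2 (32.2%), and was 25.4% for KCNAB3. Most of these variable genes are low, and counting error alone gives a coefficient of variation of 18.7% for KCNH8, 26.5% for KCNG2 and 20.0% for KCNV2. After category and cohort were fitted, the residual SD of the members had a median of 0.20 on the log2(value + 1) scale, against 0.21 over all tested genes.

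The first comparison asks whether channel expression differed between very heavy and low drinkers. No member passed limma's test: 0 of 42 had a Benjamini-Hochberg adjusted p under 0.05, and 0.0% of all tested genes did. At an unadjusted p under 0.05 there was 1 member, against 3.50% of all tested genes by limma; edgeR on the recovered reads gave 3 members and 3.8% of all genes at that level, and 0 members after adjustment. In 26 of 42 members the fitted difference lay below 0 (61.9%, against 50.1% of all genes), with a median of -0.04 on the log2(value + 1) scale, against 0.00 over all genes. VHD and LD libraries overlapped for every tested member: groups did not overlap for 0 of 42 members and for 0.0232% of all genes. All differences below are on the log2(value + 1) scale, which understates the change of low genes, and come from a model with category and cohort.

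KCNIP2, a KChIP that raises the surface level of Kv4 channels, had the smallest p. It ranged over 625.2, 743 and 846 normalized reads in VHD animals (lowest, median, highest), against 790, 874 and 1044 in LD animals. Each of the 6 VHD libraries was under the LD mean and 7 of 10 LD libraries lay above the highest VHD library, yet the groups overlapped. The fitted difference was -0.21 ± 0.09 (SE), with a limma p of 0.028 and an adjusted p of 0.948. The unadjusted p was 0.070 with library sets in the model, 0.059 without VHD replicate 1, 0.061 without BD replicate 6 and 0.087 without LD replicate 8. Cohort 5 held 4 of the 6 VHD animals and 0 LD animals. Within cohort 7a alone, where VHD met LD directly, the fitted difference was -0.15. HD animals ranged over 699, 857 and 918 and BD animals over 703, 883 and 956 normalized reads, both overlapping the LD range.

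KCNG1, a silent subunit that modifies Kv2 channels, ranged over 226, 254 and 282 normalized reads in VHD animals, against 253, 290 and 519 in LD animals. Each of the 6 VHD libraries was under the LD mean, and the LD libraries were the more spread out of the groups, at 328 ± 92.1 against 252 ± 19.4 in VHD (SD). The difference was -0.37 ± 0.19 (limma adjusted p = 0.948). KCNG1 also differed between the sets of 8 library numbers (limma adjusted p = 0.021). The highest LD libraries, replicates 3 and 2 at 519 and 450 normalized reads, came from the second set. VHD replicate 3, of the same set, had 238. KCND1, the least abundant Kv4 channel, ranged over 46.4, 66.0 and 92.1 normalized reads in VHD animals, against 67.3, 76.2 and 96.3 in LD animals. Here 4 of 6 VHD libraries lay below the LD mean, and the difference was -0.28 ± 0.16 (limma adjusted p = 0.948); within cohort 7a alone it was -0.15.

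In the other direction, KCNH8, an ELK channel, ranged over 20.8, 32.3 and 55.8 normalized reads in VHD animals, against 21.6, 29.04 and 59.99 in LD animals. The group means were close, 34.6 ± 11.7 in VHD and 33.03 ± 12.0 in LD (SD), and 3 of 6 VHD libraries exceeded the LD mean. The fitted difference of 0.49 ± 0.24 (limma adjusted p = 0.948) depends on the cohort term: without it the value was 0.07, and within cohort 7a it was 0.32. KCNIP4, a KChIP that slows Kv4 inactivation, ranged over 802, 992 and 1191 normalized reads in VHD animals, against 666, 878 and 1089 in LD animals. Its difference was 0.16 ± 0.10 (limma adjusted p = 0.948), with 5 of 6 VHD libraries above the LD mean; it was 0.09 with sets of library numbers in the model and 0.10 without VHD replicate 5. KCNV1, a silent subunit of cortical neurons, differed by 0.13 ± 0.12 (limma adjusted p = 0.948), and by 0.09 with library sets, 0.33 within cohort 7a, 0.08 without LD replicate 8 and 0.02 without VHD replicate 5.

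**Figure D2:**
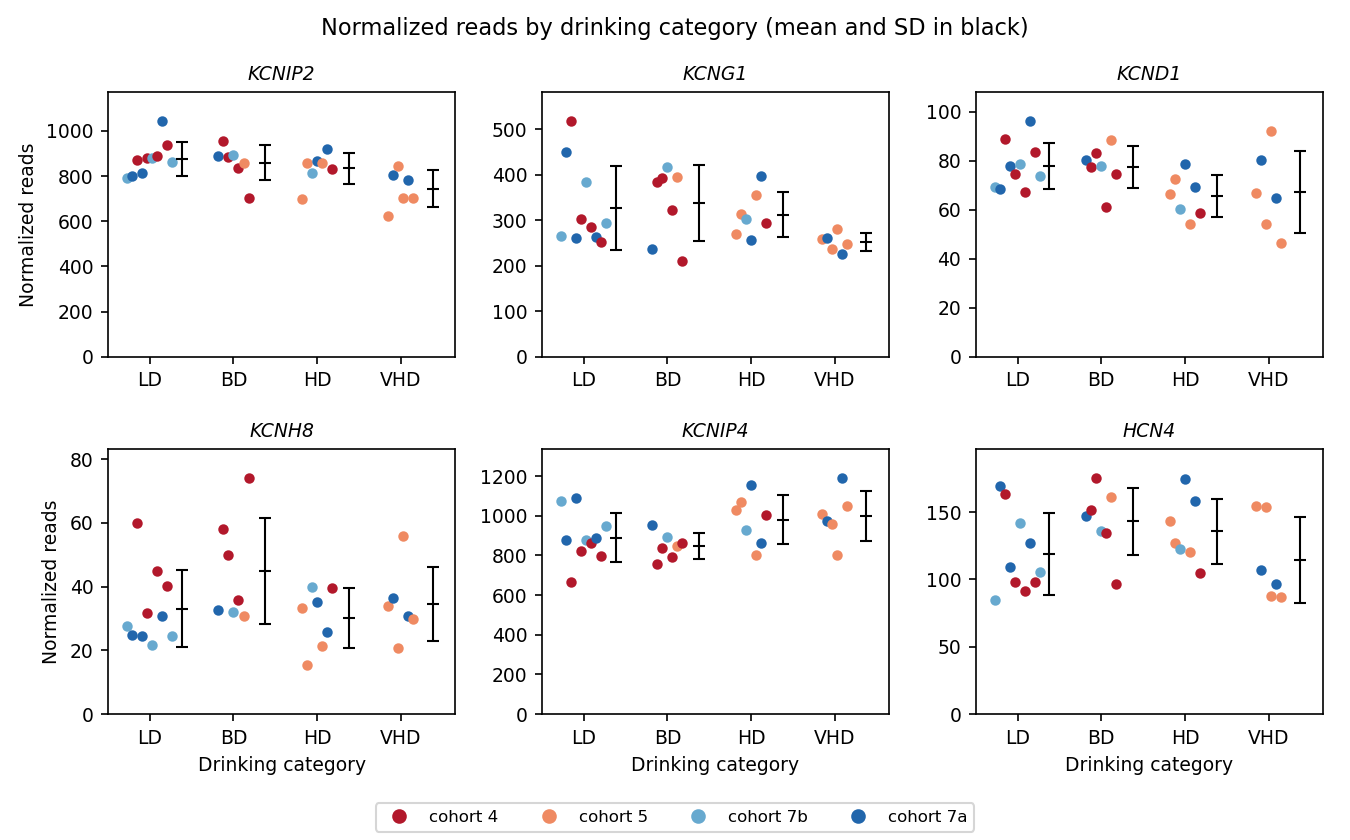
Normalized reads of KCNIP2, KCNG1, KCND1, KCNH8, KCNIP4 and HCN4 in each library by drinking category (LD, BD, HD, VHD); points are animals coloured by cohort and black marks are the mean ± SD. The 6 VHD libraries of KCNIP2 lie between 625.2 and 846 and overlap the LD libraries at 790 to 1044; every gene shown overlaps between categories.

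By role, the VHD differences fell on both sides of 0. Of the 5 tested Kv1 channels 3 were above 0 and 2 below, and of the 4 Kv7 channels 3 were above and 1 below, with a lowest value of -0.09 and a highest of 0.03. All 3 Kv4 channels lay below 0 (median -0.15), as did 3 of 4 KChIPs (median -0.12), 2 of 3 Kv beta subunits, both Kv2 channels and 2 of 3 Kv3 channels. Of the 9 silent subunits 4 were above and 5 below, of the 6 EAG, ERG and ELK channels 2 above and 4 below, and of the 3 HCN channels 1 above and 2 below. No member in any of these families passed the adjusted test. In the same comparison 0 of 11 markers of mural cells and fibroblasts lay above 0 (median -0.30), with summed levels of 1204, 1644 and 2078 normalized reads per kb in VHD animals, against 1172, 1729 and 2770 in LD animals. Of 14 immediate early genes, which respond to neuronal activity, 12 lay above 0 (median 0.18), and none of either list was at 0. Their part in the channel differences was not tested.

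Some of the most abundant channels gave narrow intervals. For KCNQ3 the VHD range was 1429, 1473 and 1731 and the LD range 1337, 1536 and 1614 normalized reads, a difference of 0.01 (95% interval -0.13 to 0.16). KCNC2 differed by 0.02 (-0.13 to 0.16) and KCNAB2 by -0.15 (-0.34 to 0.04). For 35 of the 42 members the whole interval lay within a 1.5-fold change in either direction, and for 41 within a 2-fold change; the exception to the wider limit was KCNG2, a low silent subunit.

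**Figure D3:**
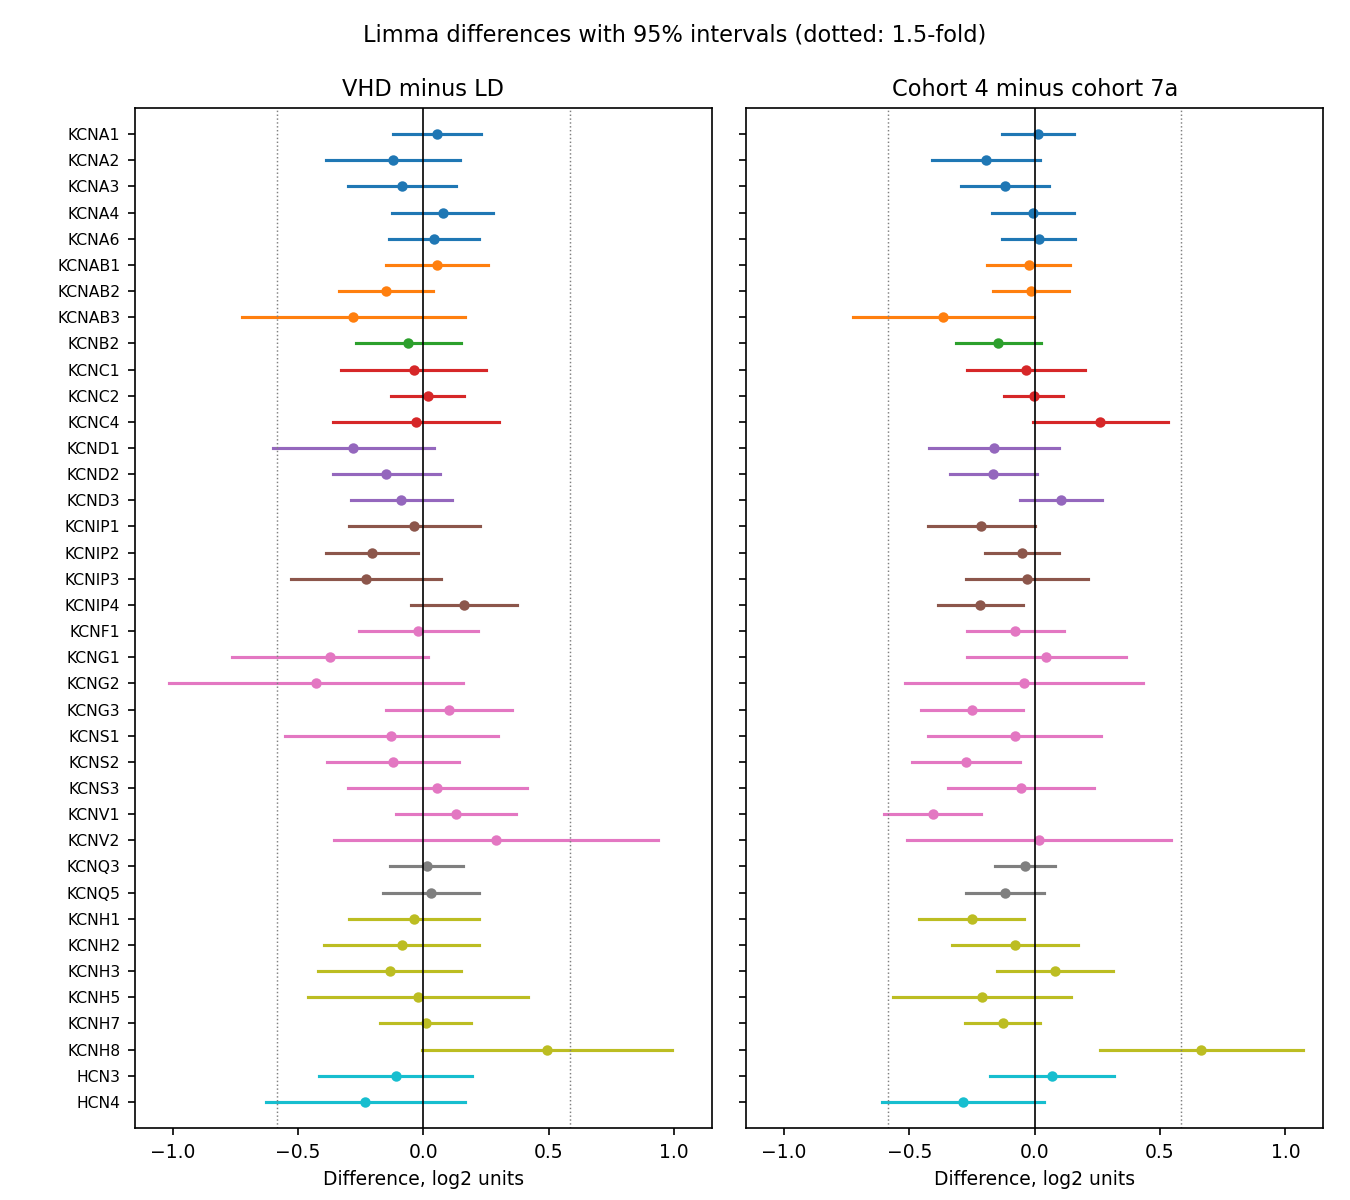
Difference of 38 tested members on the log2(value + 1) scale, VHD minus LD on 1 panel and cohort 4 minus cohort 7a on the other, with 95% intervals from limma; dotted lines mark a 1.5-fold change. The intervals of 7 members reach past the dotted lines in the first panel and those of 4 in the second.

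Heavy drinkers were set against the same LD animals, so the comparisons with LD are not independent of each other. By limma 0 of 42 members and 0.0% of all genes passed the adjusted test. At an unadjusted p under 0.05 there were 0 members by limma and 2 by edgeR, against 12.5% of all genes by limma and 11.7% by edgeR. Groups did not overlap for 0 members and 0.0155% of all genes. Of 11 markers of mural cells and fibroblasts 1 lay above 0, with a median of -0.81 and 7 unadjusted and 0 adjusted limma calls. Their sum ranged over 1059, 1274 and 2666 normalized reads per kb in HD animals, against 1172, 1729 and 2770 in LD animals, none was at 0, and their part in the channel values was not tested. KCND1 ranged over 54.4, 66.5 and 78.7 normalized reads in HD animals, against 67.3, 76.2 and 96.3 in LD animals. In 6 of 7 HD libraries KCND1 lay below the LD mean, and the difference was -0.26 ± 0.13 (limma adjusted p = 0.410); within cohort 7a it was -0.12. KCNAB1, a Kv1 beta subunit that can inactivate the channel, ranged over 934, 1047 and 1247 normalized reads in HD animals, against 822, 1009 and 1190 in LD animals. The groups overlapped, with a difference of 0.16 ± 0.08 (limma adjusted p = 0.423) that was 0.05 with library sets in the model.

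Smaller differences closed the HD list. KCNA1, an axonal Kv1 channel, differed by 0.12 ± 0.07 (adjusted p = 0.481), and by 0.08 without the cohort term. KCNIP4 differed by 0.14 ± 0.09 (0.06 with library sets, 0.08 without HD replicate 7), and KCNS2, a silent Kv2 partner, by -0.20 ± 0.11 (-0.11 without the cohort term, -0.12 without HD replicate 3). KCNH3 ranged over 1805, 2078 and 2982 normalized reads in HD animals, against 1556, 2589 and 2964 in LD animals, and differed by -0.20 ± 0.12 by limma. The groups were unevenly spread over library numbers: 4 of 7 HD libraries and 1 of 10 LD libraries came from the first set of 8. With the sets in the model the KCNH3 difference was 0.02. The part of the sets in that difference was not tested. For 41 of 42 members the HD interval lay within a 1.5-fold change.

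For binge drinkers 0 of 42 members and 0.0% of all genes passed the adjusted limma test, and at an unadjusted p under 0.05 there were 0 members by limma and 0 by edgeR, against 3.05% of all genes by limma and 2.67% by edgeR. HCN4, a slow HCN channel best known from the cardiac pacemaker, ranged over 96.4, 147 and 175 normalized reads in BD animals, against 84.5, 107 and 170 in LD animals. In 6 of 7 BD libraries it exceeded the LD mean, the groups overlapped, and the difference was 0.30 ± 0.15 (limma adjusted p = 0.999). This difference was 0.16 with library sets in the model. HCN4 was also lower in deeper libraries (-0.34 ± 0.10 log2 units per doubling of the reads). The BD libraries had a median of 6.15 M reads, against 8.76 M in LD. The part of depth in the HCN4 difference was not tested. KCNH8 ranged over 30.9, 35.9 and 74.1 normalized reads in BD animals, against 21.6, 29.04 and 59.99 in LD animals, a difference of 0.35 ± 0.19 (limma adjusted p = 0.999).

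The other BD differences named were smaller. KCND2 ranged over 813, 866 and 1154 normalized reads in BD animals, against 776, 1042 and 1138 in LD animals, and differed by -0.15 ± 0.08. KCNH7, an ERG channel, differed by 0.11 ± 0.07, and by 0.18 without BD replicate 4. KCNS2 and KCNIP3, a KChIP also known as calsenilin, differed by -0.13 ± 0.10 and -0.13 ± 0.11, values that became -0.03 and -0.03 with library sets in the model. Without BD replicate 1 they were -0.06 and -0.03, and without LD replicate 3 the KCNS2 value was -0.23. Each had a limma adjusted p of 0.999. Groups did not overlap for 0 members and 0.0% of all genes.

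Across the 4 categories at once, 0 of 42 members and 0.0% of all genes passed the adjusted limma test for any difference. HCN4 was the 1 member with an unadjusted p under 0.05 (0.049, adjusted 0.861), against 5.62% of all genes, and edgeR gave 0 members and 5.16% of all genes. With depth in the limma model there were 0 members, against 6.44% of all genes. HCN4 medians were 107 in LD, 147 in BD, 127 in HD and 102 normalized reads in VHD animals, so the highest median was that of the binge drinkers, with overlapping groups. A linear trend from LD through BD and HD to VHD likewise gave 0 adjusted calls among members and 0.0% of all genes. KCND1 was the 1 member at an unadjusted p under 0.05 (limma p = 0.048, adjusted 0.745; edgeR gave 2 members), against 6.18% of all genes by limma and 6.29% by edgeR. Its slope was -0.10 ± 0.05 log2 units per category step, and its medians were 76.2 in LD, 77.9 in BD, 66.5 in HD and 66.0 normalized reads in VHD animals. KCNG2 and KCNH8 were next for any difference (unadjusted limma p = 0.088 and 0.128). The trend was -0.06 ± 0.03 for KCNIP2, -0.08 ± 0.05 for KCNIP3 and 0.06 ± 0.03 for KCNIP4. It was 0.04 ± 0.04 for KCNV1 (0.03 without LD replicate 8, 0.02 without VHD replicate 5) and 0.14 ± 0.08 for KCNH8, and the KCNH8 value turned to -0.02 without the cohort term. A limma test for trends that differ between cohorts gave 0 adjusted and 0 unadjusted member calls, against 290 unadjusted calls over all genes.

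Cohorts were compared next, with cohort 7a, the youngest, as the baseline; cohort carries age and anything else that differed by cohort, and these cannot be told apart. By limma 0 of 42 members and 0.0% of all genes passed the adjusted test for any cohort difference, and 5 members against 8.04% of all genes had an unadjusted p under 0.05 (4 members and 8.19% of all genes by edgeR). KCNV1 had the smallest p of the members (0.000274, limma adjusted p = 0.210), ahead of KCNH8 (adjusted 0.318) and KCNA6 (adjusted 0.525).

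In cohort 4 against cohort 7a, 0 of 42 members and 0.0% of all genes passed the adjusted limma test. At an unadjusted p under 0.05 there were 7 members by limma and 8 by edgeR, against 9.15% of all genes by limma and 8.64% by edgeR. The fitted difference was below 0 in 31 of 42 members (73.8%, against 48.2% of all genes), with a median of -0.05, against 0.01 over all genes. Groups did not overlap for 0 members and 0.0387% of all genes. By role, 7 of 9 silent subunits, 4 of 4 KChIPs (median -0.13), 3 of 3 Kv beta subunits, 2 of 2 Kv2 channels and 4 of 6 EAG, ERG and ELK channels lay below 0. So did 3 of 5 Kv1, 2 of 3 Kv3, 2 of 3 Kv4, 2 of 4 Kv7 and 2 of 3 HCN channels. Against the same cohort 7a animals, 32 of 42 members lay below 0 in cohort 5 (76.2%, against 47.3% of all genes) and 29 of 42 in cohort 7b (69.0%, against 47.6%).

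KCNV1, which sits on chromosome 8 at 108581835 to 108589579 in the table, ranged over 612, 757 and 869 normalized reads in cohort 4 (lowest, median, highest), against 820, 986 and 1303 in cohort 7a. All 9 cohort 4 libraries lay below the cohort 7a mean, and 8 lay below its lowest library. The difference was -0.41 ± 0.10 (limma adjusted p = 0.147), and -0.44 with an adjusted p of 0.035 when the category term was left out. Cohort 5 ranged over 645, 830 and 912 and cohort 7b over 825, 843 and 1039 normalized reads. All 8 cohort 5 libraries lay below the cohort 7a mean, with a difference of -0.37 ± 0.10 (limma adjusted p = 0.325).

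KCNH8, on chromosome 3 at 25900977 to 26282249, went the other way. It ranged over 31.7, 44.9 and 74.1 normalized reads in cohort 4, against 24.6, 30.7 and 36.3 in cohort 7a. All 9 cohort 4 libraries exceeded the cohort 7a mean and 7 exceeded its highest library, with a difference of 0.67 ± 0.20 (limma adjusted p = 0.237). Cohorts 5 and 7b had medians of 30.4 and 27.5 normalized reads, close to that of cohort 7a.

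Markers of oligodendrocytes and myelin were read in the same cohorts. Of 12 tested markers 12 lay above 0 in cohort 4 against cohort 7a, with a median difference of 0.77 and 10 unadjusted and 0 adjusted limma calls. Their summed level ranged over 1312, 2269 and 6740 normalized reads per kb in cohort 4, against 1264, 1669 and 2195 in cohort 7a, and none of the 12 was at 0. Across the 30 libraries the log2 level of KCNH8 followed this sum with Pearson's r = 0.629 (permutation p = 0.00015) and Spearman's rho = 0.448 (permutation p = 0.0141), adjusted over 2 relations to 0.0003 and 0.0282. It was 0.436 without the 2 libraries farthest from the median, and 0.561, 0.643 and 0.297 within cohorts 4, 5 and 7a; cohort 7b, with 5 animals, was too small for a value. KCNV1 gave r = -0.431 (permutation p = 0.0175) and rho = -0.371 (permutation p = 0.0445), -0.338 without those libraries, and -0.662, 0.2 and -0.0556 within cohorts 4, 5 and 7a, so its relation did not hold within every cohort. Both relations were chosen after the values were seen. With the myelin sum in the model, the difference between cohorts 4 and 7a was 0.42 for KCNH8 (limma adjusted p = 0.636) and -0.35 for KCNV1 (limma adjusted p = 0.507). That model was also chosen after the values were seen, and the part of myelin in either difference was not tested.

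**Figure D4:**
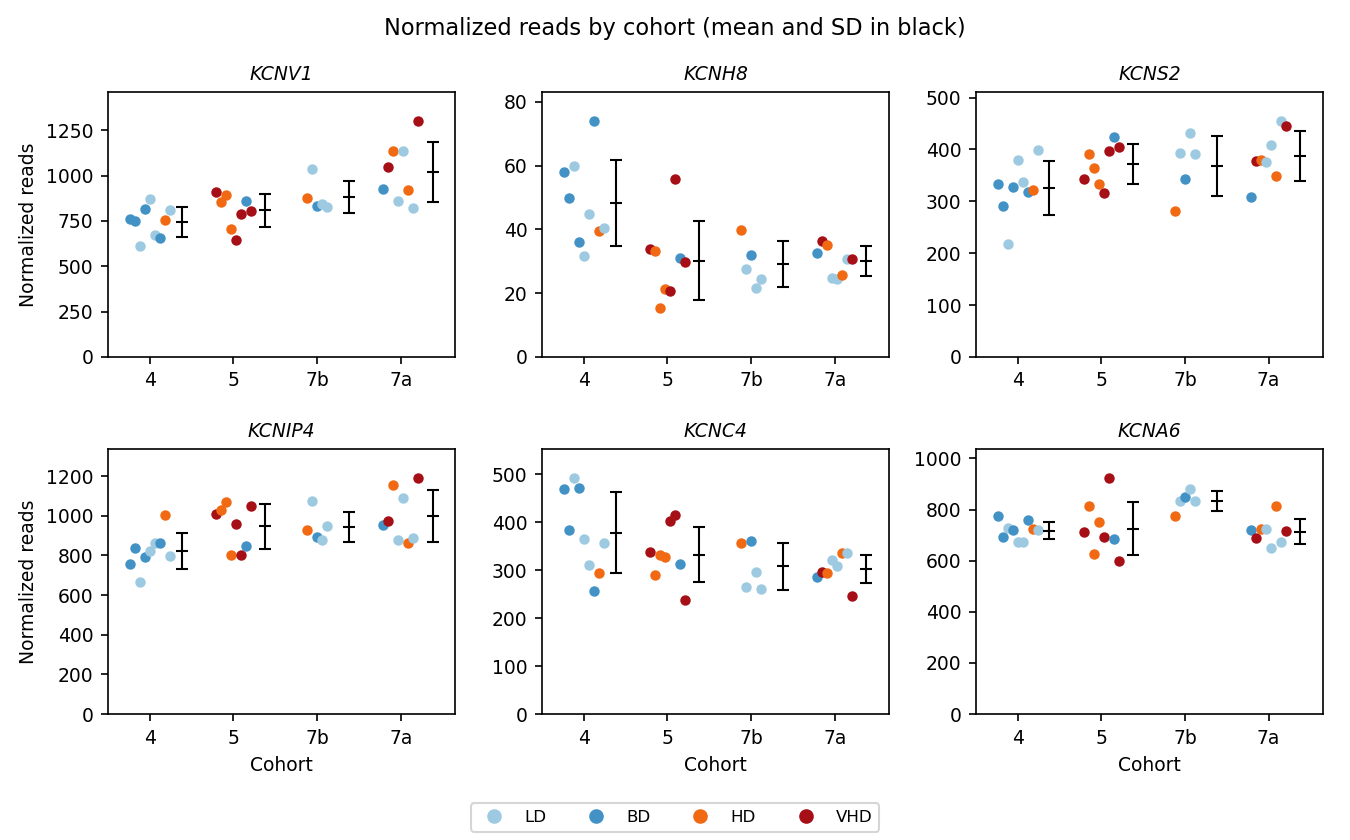
Normalized reads of KCNV1, KCNH8, KCNS2, KCNIP4, KCNC4 and KCNA6 in each library by cohort (4, 5, 7b, 7a); points are animals coloured by category and black marks are the mean ± SD. KCNV1 lies between 612 and 869 in cohort 4 and between 820 and 1303 in cohort 7a, and KCNH8 between 31.7 and 74.1 in cohort 4 and between 24.6 and 36.3 in cohort 7a.

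KCNS2 ranged over 217, 329 and 400 normalized reads in cohort 4, against 308, 379 and 455 in cohort 7a. In 8 of 9 cohort 4 libraries it lay below the cohort 7a mean, and the difference was -0.27 ± 0.10 (limma adjusted p = 0.408), or -0.18 without LD replicate 3. KCNIP4 ranged over 666, 824 and 1005 normalized reads in cohort 4, against 860, 962 and 1191 in cohort 7a, with 8 of 9 libraries below the cohort 7a mean and a difference of -0.22 ± 0.08 (limma adjusted p = 0.421). KCNC4, a Kv3 channel, ranged over 256, 365 and 492 normalized reads in cohort 4, against 246, 303 and 335 in cohort 7a. Its difference was 0.26 ± 0.13 (limma adjusted p = 0.550), and its level also fell with sequencing depth, by 0.37 ± 0.07 log2 units per doubling of the reads. KCND3 differed by 0.10 ± 0.08 (limma adjusted p = 0.740), by 0.04 with library sets in the model, by 0.06 without BD replicate 1 and by 0.05 without LD replicate 3.

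For cohort 5 against cohort 7a, 0 of 42 members and 0.0% of all genes passed the adjusted limma test, and 3 members (3 by edgeR) against 8.59% of all genes (8.46% by edgeR) had an unadjusted p under 0.05. Groups did not overlap for 0 members and 0.0773% of all genes in this comparison. KCNG2 (0.29 ± 0.24, and 0.19 without the category term) and KCNC4 (0.13 ± 0.13, 0.22 with depth in the model and 0.05 without VHD replicate 5) were the members with the smallest p above 0. For cohort 7b, 0 members and 0.0% of all genes passed the adjusted test, and 1 member (1 by edgeR) against 5.04% of all genes (4.98% by edgeR) had an unadjusted p under 0.05. That member was KCNA6, a Kv1 channel, which ranged over 775, 834 and 881 normalized reads in cohort 7b, against 648, 718 and 813 in cohort 7a. All 5 cohort 7b libraries exceeded the cohort 7a mean and 7 of 8 cohort 7a libraries lay below the lowest of cohort 7b, yet the groups overlapped, as for all 42 members and all but 0.255% of genes. The difference was 0.24 ± 0.08 (limma adjusted p = 0.929). KCNAB1 differed by 0.15 ± 0.09, KCND2 by -0.18 ± 0.10 and KCNH1 by -0.19 ± 0.12 (-0.11 without HD replicate 3) in cohort 7b (limma adjusted p = 0.998 for each).

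The labels number the libraries, and these numbers were put in sets of 8 and tested. In a limma model with category and cohort, 9 of 42 members (21.4%, against 21.5% of all genes) differed between the sets at an adjusted p under 0.05, a share near that of all genes. KCNH3, KCNIP3, KCNC4, KCNH5, KCNG1, KCNQ5 and KCND3 were among them. Sequencing depth called 4 of 42 (9.52%, against 13.5% of all genes), all lower in deeper libraries: KCNC4, KCNC1 (-0.32 ± 0.06 per doubling), KCNQ5 (-0.18 ± 0.05) and HCN4 (-0.34 ± 0.10).

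Single exons were tested for use relative to the rest of their gene. Of 118340 exons tested, 273 belonged to 38 of the members. By limma 0 member exons passed the adjusted test between VHD and LD, along the category trend or between cohorts 4 and 7a, as did 0.0% of all exons. At an unadjusted p under 0.05 there were 10 (3.66%, against 3.59% of all exons), 16 (5.86%, against 4.46%) and 8 (2.93%, against 5.17%) member exons in the 3 comparisons. The smallest p between VHD and LD belonged to an exon of KCNH5, an EAG channel, at chromosome 14, 124720424 to 124720530. It held 6.24, 7.19 and 10.1% of the gene's reads in VHD animals (lowest, median, highest), against 4.65, 5.98 and 8.42% in LD animals, a difference of 0.52 ± 0.15 on the log2 scale with overlapping groups.

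In KCNB2, a Kv2 channel, the longest exon (chromosome 8, 71009769 to 71012173) held 51.3, 60.9 and 64.3% of reads in VHD animals, against 61.9, 65.3 and 69.4% in LD animals. The first exon in coordinate order (70598845 to 70599337) held 4.59, 5.66 and 6.36% in VHD animals, against 3.37, 4.78 and 7.21% in LD animals. Since shares within a gene sum to a fixed total, these are not independent. An exon of KCNIP1 (chromosome 5, 168694840 to 168694944) held 5.48, 7.77 and 8.80% of reads in VHD animals, against 3.06, 4.39 and 6.80% in LD animals, a difference of 0.88 ± 0.34. An exon of KCNH1, an EAG channel (chromosome 1, 155223942 to 155224194), held 2.27, 2.82 and 3.72% in VHD animals, against 2.94, 4.16 and 5.18% in LD animals, a difference of -0.52 ± 0.20. Every one of these ranges overlapped.

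Between cohorts the exon with the smallest p was in KCNQ3, at chromosome 8, 131222494 to 131222620, with 2.64, 3.69 and 5.23% of reads in cohort 4, against 3.13, 4.66 and 6.03% in cohort 7a. The difference was -0.35 ± 0.13, not past the adjusted limma test. In KCND1 an exon at chromosome X, 49084514 to 49087201, held 29.9, 40.7 and 55.8% in cohort 4, against 29.3, 33.8 and 38.8% in cohort 7a. A gene-level test of exon use was limma's diffSplice with the Simes method, without library sets in its model. It called 1 of 38 members in this comparison, KCNH3 (adjusted p = 0.0392), and 291 of 11243 genes. The share of members called was thus near the share of all genes. It called 0 of 38 members and 100 of 11243 genes in VHD against LD, and 0 of 38 members and 172 of 11243 genes along the trend.

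Known partners were compared across animals. Pairs were tested over 30 animals with p-values adjusted over 10 pairs, of which 8 are described. KCND2 and KCNIP4, a Kv4 channel and its KChIP, had r = 0.50 (permutation p = 0.00489, adjusted 0.0293) and rho = 0.391 (adjusted 0.0812). The value was 0.326 without the 2 animals farthest out on KCND2, and 0.529, 0.108 and 0.601 within cohorts 4, 5 and 7a, so the relation was weak in cohort 5 and partly rests on those animals. After category and cohort were taken out, the value was 0.563 (permutation p adjusted to 0.0064), and 0.486 with library sets taken out as well (adjusted 0.0234). These permutations treated the residuals as 30 free values and did not count the terms fitted, so both p-values are too small.

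KCNA2 with KCNAB2 (r = 0.365, adjusted p = 0.116) did not pass the permutation test on the levels. It was 0.105, 0.805 and 0.614 within cohorts 4, 5 and 7a. After category, cohort and library sets were taken out it was 0.578 (permutation p adjusted to 0.0072). That p-value does not count the terms fitted and is too small, so whether the pair passes on residuals is open. Channels of fast-spiking interneurons were set against PVALB, the marker of those cells. KCNC1 gave r = -0.053, KCNC2 -0.0112, KCNA1 -0.16 and KCNS3 0.277 with PVALB, with adjusted permutation p between 0.272 and 0.953. KCNC1 instead moved with depth, at r = -0.732. The pairs KCNC1 with KCNC2 (0.156) and KCNA1 with KCNA2 (0.0302) did not pass either.

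**Figure D5:**
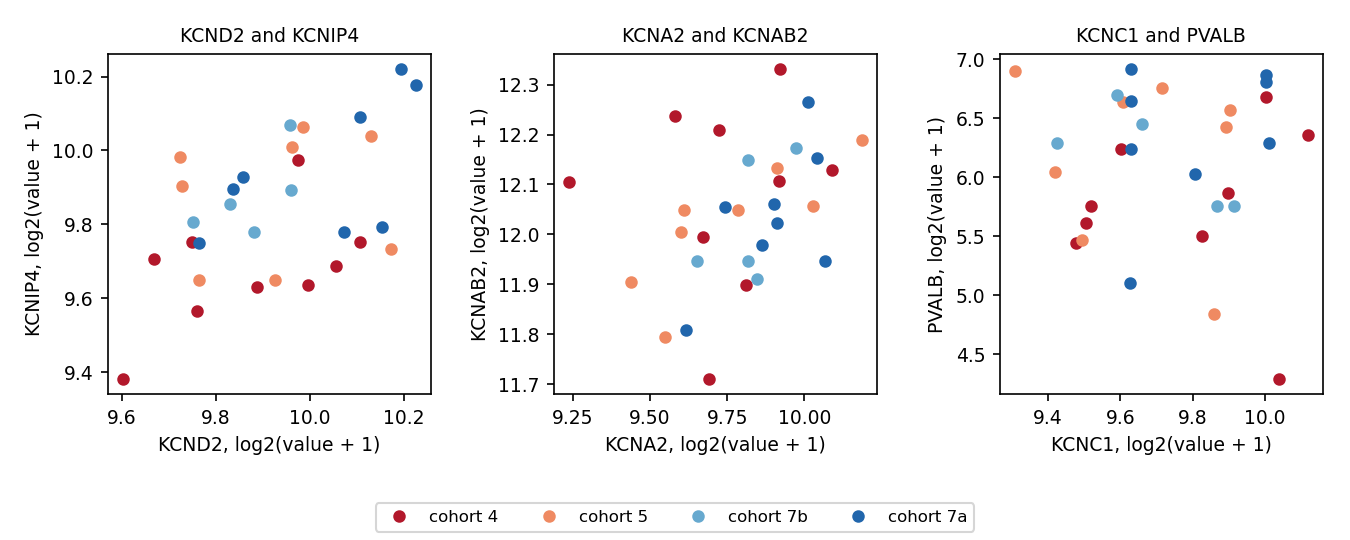
Log2 levels in the 30 libraries for KCND2 and KCNIP4, KCNA2 and KCNAB2, and KCNC1 and PVALB, each point an animal coloured by cohort. KCND2 with KCNIP4 has r = 0.50, KCNA2 with KCNAB2 has r = 0.365, and KCNC1 with PVALB has r = -0.053.

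Genes around the channels were read from further lists. Of 24 tested channel partners, such as the Kv4 accessory protein DPP10 and the axonal protein CNTNAP2, 12 lay above and 12 below 0 in VHD against LD animals (median 0.00), and 6 above and 18 below in cohort 4 against cohort 7a (median -0.08). Of 30 tested other potassium channels 15 lay above and 15 below 0 in VHD, and 11 above and 19 below in cohort 4. Of 10 sodium channel genes 4 lay above and 6 below in VHD (median -0.01), and 5 on each side in cohort 4. Of 9 calcium channel genes 2 lay above and 7 below in each comparison (median -0.14 in both). By limma 0 genes of these lists passed the adjusted test. The smallest p in VHD was that of NETO1, an auxiliary subunit of glutamate receptors, at 0.29 ± 0.10 (limma adjusted p = 0.948).

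Cell type markers gave the following counts above and below 0, with 0 adjusted limma calls in any list. In VHD against LD they were 5 and 5 for parvalbumin interneurons, 3 and 8 for other interneurons, 6 and 3 for excitatory neurons, 10 and 2 for myelin, 5 and 2 for oligodendrocyte precursors and 4 and 6 for astrocytes. They were 5 and 7 for microglia and 4 and 5 for endothelium. In cohort 4 against cohort 7a they were 4 and 6 for parvalbumin interneurons, 4 and 7 for other interneurons, 5 and 4 for excitatory neurons, 5 and 2 for oligodendrocyte precursors and 7 and 3 for astrocytes. They were 3 and 9 for microglia, 6 and 3 for endothelium and 5 and 6 for mural cells and fibroblasts. Excitatory markers summed to 1470, 1574 and 1860 normalized reads per kb in VHD animals, against 1437, 1563 and 1713 in LD animals. Of the 14 immediate early genes, 3 lay above 0 in cohort 4 against cohort 7a (median -0.17), with sums of 890, 1102 and 1348 normalized reads per kb in cohort 4, against 1201, 1299 and 1665 in cohort 7a. The part of these markers in the channel differences was not tested.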

How the data were processed

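The authors deposited a gene table and an exon table for the whole series, whose unit is named here as signal: reads per gene or exon scaled to a common depth. CASAVA, FastQC, STAR 2.3.0e and edgeR are listed, per the submitters' processing notes; no source used here gives the build, annotation or counting rule. Every deposited signal value was a whole multiple (100% within 0.01) of 1 read, so whole reads were recovered. The deposited values were tested as log2(value + 1) by limma 3.58.1 (R 4.3.3) in 1 model of category and cohort over all 30 libraries, for genes at 10 or more in 6 or more libraries, with Benjamini-Hochberg adjustment over 12935 genes. Exon use was tested by limma on log2(exon value + 1) minus log2(gene value + 1) for exons at 5 or more in 6 or more libraries. Alternatives were edgeR 4.0.16 on the reads, no filter, other pseudocounts, other covariates, single cohorts and each library left out; the model was tested on simulated data. Correlations used 100000 permutations (scipy 1.17.1). Library sizes of 4.39 to 13.99 M reads leave counting error large only in low genes. Replicates are animals.

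The members, lists and comparisons were chosen with earlier results of these data known. Named genes were the 3 smallest p in each direction for the category, trend and cohort 4 comparisons, the 2 smallest for the other cohorts, the 3 smallest in any category or cohort, and the extremes of level and spread. A planned pair with HCN2 was not run, as HCN2 is not used here. Single values of 4 tested members are not reported here. No sequence is shown, since no genome or sequence table was used.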

Additional observations from a re-analysis of the deposited data

Results flagged for a closer look

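In groups of 4 to 10 animals, 6 of 76 gene and group combinations for the named members held a library far from the rest of its group by Dixon's criterion; chance gives about 4. LD replicate 3, of cohort 4 and with 4.39 M reads the shallowest library, accounts for 4 of them. In it KCNC4 was highest of the LD animals at 492.3 normalized reads (nearest 365), KCND2 lowest at 775.7 (nearest 942.5), KCNH1 lowest at 1369 (nearest 1957) and KCNS2 lowest at 217.2 (nearest 336.4). LD replicate 1, of cohort 7b, had the lowest KCNH3 among LD animals at 1556 normalized reads (nearest 2400). BD replicate 6, of cohort 5, had the highest KCNS2 among BD animals at 423.3 normalized reads (nearest 342.5).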

How the results depend on the processing

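No paired analysis was possible because the labels give the animals no replicate numbers shared across groups. Without the category term, 1 member passed in cohort 4 against cohort 7a (KCNV1, -0.44, adjusted p = 0.0352, with 26 genes in all), where 0 did with it. Exon use tested by limma's diffSplice (adjusted p = 0.0392) gave 1 of 38 members, KCNH3, and 291 of 11243 genes in that comparison. KCNH3 in HD against LD became 0.019 with library sets, and the KCNH8 category trend became -0.020 without the cohort term. On residuals with library sets taken out, KCNC1 with PVALB became 0.226, KCNC2 with PVALB 0.158 and KCNC1 with KCNC2 -0.0112. KCNA2 with KCNAB2, at 0.578, fell under the threshold by a permutation p that does not count the terms fitted and so is too small. The cause of these changes was not tested. Each result was checked under each alternative run. The other 117 checks of counts, 424 of named differences and 12 of pairs kept direction and side of the threshold. So did 270 checks of counts and 1110 of named differences with 1 library left out. With 1 library left out, KCNIP2 in VHD against LD ranged from -0.24 to -0.16, KCNH8 in cohort 4 from 0.59 to 0.72 and KCNV1 in cohort 4 from -0.46 to -0.36. Less stable were KCNV1 in VHD (0.02 to 0.18), KCNIP3 in BD (-0.17 to -0.03), KCNS2 in BD (-0.23 to -0.06), KCNC4 in cohort 5 (0.05 to 0.18) and KCND3 in cohort 4 (0.05 to 0.14). Over all genes, cohort 4 against cohort 7a gave 15 adjusted calls with library sets, 7 without BD replicate 1 and 1 without LD replicate 9. At an unadjusted p under 0.05, VHD against LD gave 0 members with library sets (2.59% of all genes), without VHD replicate 1 (2.61%) and without BD replicate 6 (2.66%). Cohort 4 gave 3 members with the myelin sum (7.86% of all genes) and 9 with library sets (10.2%). The planned pair with HCN2 was not run. Models with the myelin sum, levels from the longest exon and HCN3 without its main exon were chosen after seeing the data. Depth limits KCNG2, KCNH8 and KCNV2 most.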
